A study of Mus musculus with 18 samples.

Results

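The Hippo pathway genes described here are 10 of 25239 gene symbols measured: the TEAD transcription factors Tead1, Tead2, Tead3 and Tead4, their co-activators Yap1 and Wwtr1 (which encodes TAZ), and the target genes Ctgf, Cyr61, Amotl2 and Ankrd1. The rule picks them by symbol and uses no measured value, though they were proposed with earlier results of these data known. Ctgf and Cyr61 are older symbols, listed in the table under their current names Ccn2 and Ccn1. All 10 passed the filter on low counts. RNA was sequenced from 18 libraries of mouse stem cells, 3 in each of 6 groups. Primed cells (EpiSC) formed day 0 of a change towards naive pluripotency, and D3, D5 and D8 are its days 3, 5 and 8, with cells the labels call transient. Naive cells (rES) were the product, and ESC (mESC) served as embryonic stem cells for comparison. All libraries have the embryo as their source, and the labels give no strain, genotype, medium or treatment, nor whether the 3 replicates of a group came from separate cultures. The p-values therefore cover only variation among these libraries, which may be technical.

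The Hippo pathway is a kinase cascade in which MST kinases activate LATS kinases, which phosphorylate YAP and TAZ and hold them in the cytoplasm. Without that phosphorylation YAP and TAZ enter the nucleus, where they bind TEAD factors, since they do not bind DNA themselves. In the early mouse embryo TEAD4 with YAP drives trophectoderm genes in outer cells. Most of this regulation acts on protein, so the transcript levels below do not measure YAP or TAZ activity.

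Totals per library ran from 58.4 to 101.6 M counts. Across genes, correlations within groups ran from 0.991 to 0.997. Levels are CPM, counts per M counts of a library whose size was scaled by the TMM method, as mean ± SD of 3 libraries. Differences are log2 values with an approximate standard error, and adjusted p comes from edgeR's quasi-likelihood test. The labelled states were checked on marker genes. Summed over 7 naive markers, the level was 56.7 to 63.2 CPM in EpiSC, 859 to 1543 CPM at D8, 3848 to 3885 CPM in rES and 4063 to 4206 CPM in ESC, and Zfp42 had no count in EpiSC. Over 6 primed markers it was 1946 to 2125 CPM in EpiSC and at most 241 CPM in any other library. The days between also held markers of other cell types. The 8 trophoblast markers summed to 530 to 1291 CPM at D3, D5 and D8 and to 2.79 to 11.1 CPM in EpiSC, rES and ESC, with Cdx2 at 0 in EpiSC and Hand1 at 0 in ESC. The 9 fibroblast markers summed to 502 to 1685 CPM on those days, 31.4 to 47.5 CPM in EpiSC, 132 to 175 CPM in ESC and 17.4 to 19.4 CPM in rES, where Dcn and S100a4 were at 0. The 5 primitive endoderm markers summed to 42.0 to 67.5 CPM on those days and to 1.44 to 15.3 CPM in EpiSC, rES and ESC. In such bulk samples fewer cells of a type and less RNA per cell cannot be told apart.

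TEAD factors bind the short motif GGAATG, so the 250 bases before each start site in RefSeq on GRCm38.p6 were searched for it on both strands, as GGAATG or its reverse complement CATTCC. Of the 10 genes 7 had an entry. Tead1, Tead4 and Ctgf did not. In 6 of the 7 at least 1 window held the motif, and Tead2 had none. Of all 32851 windows of that length 12.6% held it, and of 27025 genes 14.4% in at least 1 window. A match is a stretch of letters and no evidence of binding. The whole window is printed for Cyr61, a target that was lowest in rES, and Wwtr1, a co-activator that was highest at D5 and D8. Neither printed window holds an annotated exon base. Another start site of Wwtr1 has the same match at -170, and its window holds 34 exon bases. Capitals mark the motif, which starts at position -103 from the start site of Cyr61 (window chr3:145649986-145650235, minus strand) and at -136 from that of Wwtr1 (window chr3:57575911-57576160, minus strand).
Cyr61: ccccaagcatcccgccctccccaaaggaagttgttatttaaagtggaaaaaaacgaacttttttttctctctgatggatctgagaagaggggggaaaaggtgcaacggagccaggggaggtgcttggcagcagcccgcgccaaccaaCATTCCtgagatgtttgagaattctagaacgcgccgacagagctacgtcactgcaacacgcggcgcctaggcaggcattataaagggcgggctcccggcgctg
Wwtr1: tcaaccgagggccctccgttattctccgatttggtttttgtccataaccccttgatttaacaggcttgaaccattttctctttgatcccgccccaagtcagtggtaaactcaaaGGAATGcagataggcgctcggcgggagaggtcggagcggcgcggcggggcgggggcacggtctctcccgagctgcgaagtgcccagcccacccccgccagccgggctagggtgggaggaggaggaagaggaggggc
For the other genes with a match the 30 bases around it are shown, to let the flanks be compared. They lie at position -65 for Amotl2 (chr9:102717727-102717756, plus strand), -210 for Ankrd1 (chr19:36120037-36120066, minus strand), -141 for Yap1 (chr9:8004720-8004749, minus strand) and -182 for Tead3 (chr17:28350970-28350999, minus strand). Ankrd1 has another match at -123. Another start site of Tead3 has matches at -123 and -114. Unlike the 2 windows above, these hold annotated exon bases: 136 of 250 for Amotl2, all 250 for Ankrd1, 17 for Yap1 and 12 for Tead3. The window of the other Tead3 start site holds 217.
Amotl2: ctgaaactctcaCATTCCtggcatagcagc
Ankrd1: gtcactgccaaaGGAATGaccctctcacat
Yap1: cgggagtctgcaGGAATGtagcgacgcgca
Tead3: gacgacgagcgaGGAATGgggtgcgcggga

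The members were first counted against EpiSC. At D3 all 10 were called, 6 higher and 4 lower, where 64.2% of 17545 tested genes were called, 34.1% higher and 30.2% lower. D5 gave 9, with 5 higher and 4 lower, against 72.0% of all genes, 37.7% higher and 34.3% lower. For D8 the count was 10, with 7 higher and 3 lower, against 76.8%, 42.4% higher and 34.5% lower. In rES all 10 were called, 5 each way, against 69.4%, 31.9% higher and 37.5% lower. ESC gave 8, 4 each way, against 67.3%, 31.2% higher and 36.1% lower. The median log2 difference of the 10 was 0.63, 1.28, 1.49, -0.25 and -0.12 in these comparisons, and that of all tested genes lay between -0.09 and 0.18. These 5 comparisons share the EpiSC libraries. For rES and ESC the all-gene shares higher and lower depend on the scaling, as given below. Differences of at least 2-fold were called for 4 members at D3 (34.8% of all genes), 6 at D5 (46.7%), 5 at D8 (52.5%), 6 in rES (41.4%) and 4 in ESC (39.0%). Since most genes were called in each of these comparisons, the sizes are given for each member.

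**Figure D1:**
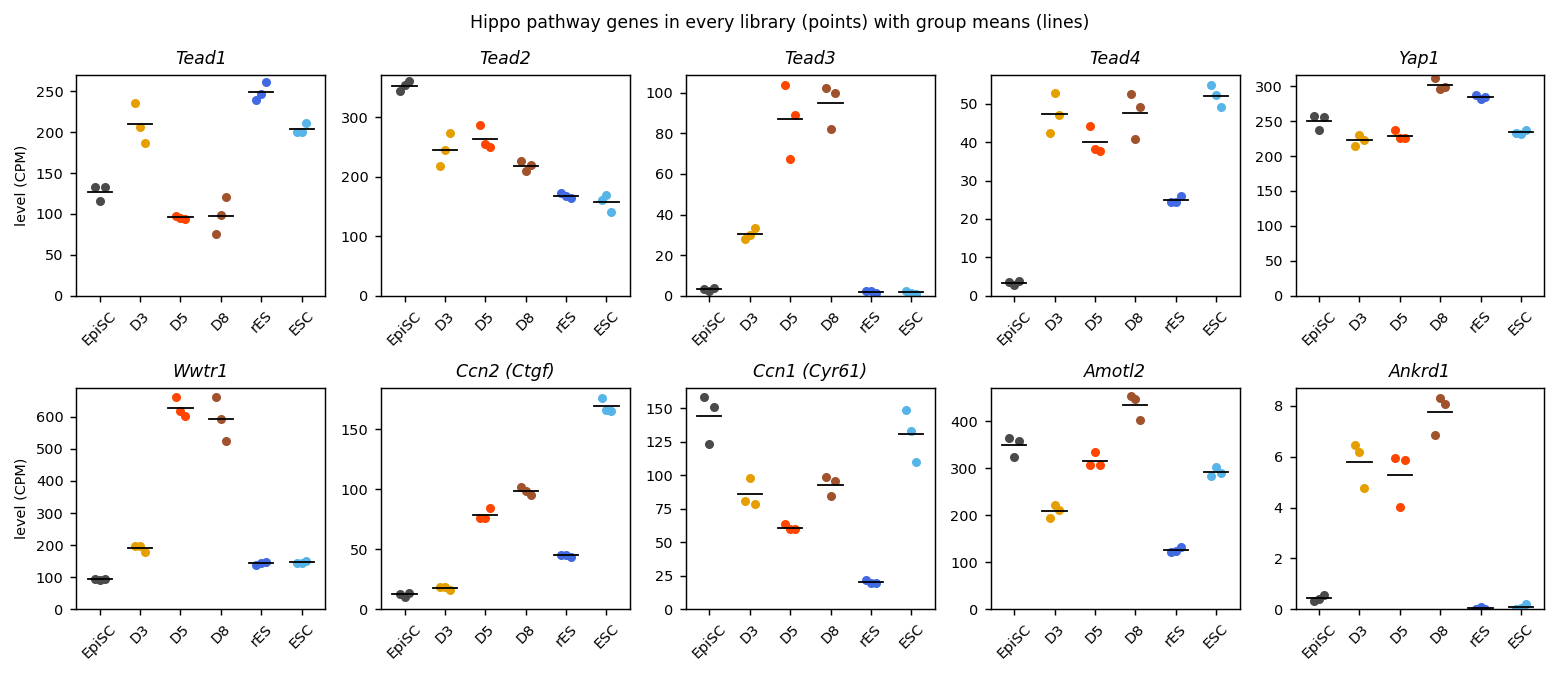
Level of each of the 10 genes in CPM (vertical axes, linear, from 0) in every library (points) by group (horizontal axes), with the group mean as a line. Tead3, Wwtr1 and Ankrd1 are highest on the days between, Tead4 is lowest in EpiSC, and Cyr61 and Amotl2 are lowest in rES.

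Tead4 (chromosome 6, 128224288 to 128300823 on GRCm38, minus strand), the trophectoderm TEAD gene, was lowest in EpiSC. Its EpiSC libraries stood at 3.56, 2.93 and 3.92 CPM. At D3 they were 42.4, 52.7 and 47.1 CPM, at D5 44.2, 38.2 and 37.6 CPM, and at D8 52.6, 40.8 and 49.1 CPM. The rES libraries were at 24.5, 24.4 and 25.9 CPM and the ESC libraries at 55.0, 52.1 and 49.0 CPM. Every library of the other groups was above every EpiSC library, and every rES library was below those of D3, D5, D8 and ESC. Tead4 was 13.6-fold higher at D3 than in EpiSC (log2 difference 3.76 ± 0.13, adjusted p = 5.85e-14), and 15.0-fold higher in ESC (3.89 ± 0.13, adjusted p = 2.24e-14). The rise was 7.17-fold in rES (2.83 ± 0.13, adjusted p = 8.86e-13). From D3 to D5 the difference was -0.24 ± 0.11 (adjusted p = 0.0697) and from D5 to D8 0.25 ± 0.11 (adjusted p = 0.0799), so neither step passed the threshold. The first passed in 2 of 12 alternatives (adjusted p from 0.0313 to 0.279) and the second in 5 of 12 (from 0.0213 to 0.277). From D8 to rES Tead4 fell by 0.93 on the log2 scale (adjusted p = 7.57e-07).

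Tead3 (chromosome 17, 28331671 to 28350817, minus strand), known from placenta as well as muscle, was high on the days between the pluripotent states and low at both ends. EpiSC libraries held 3.60, 2.47 and 3.80 CPM. The 3 libraries of D3 held 28.1, 30.0 and 33.6 CPM, those of D5 103.7, 67.5 and 89.0 CPM and those of D8 102.2, 82.3 and 99.7 CPM. In rES they held 2.18, 2.42 and 1.50 CPM and in ESC 2.33, 1.59 and 1.07 CPM. The lowest library of D3 was above the highest of EpiSC, rES and ESC. Tead3 was 28.8-fold higher at D8 than in EpiSC (log2 difference 4.83 ± 0.24, adjusted p = 2.74e-12) and 46.6-fold lower in rES than at D8 (-5.52 ± 0.25, adjusted p = 1.15e-12). It rose again from D3 to D5 (1.50 ± 0.21, adjusted p = 5.17e-06), while D5 and D8 overlapped (0.13 ± 0.20, adjusted p = 0.643). ESC were below EpiSC (-0.98 ± 0.25, adjusted p = 0.00182). The lower level in rES than in EpiSC (-0.69 ± 0.24, adjusted p = 0.0170) lost its call under 5 of 12 alternatives, whose adjusted p ranged from 0.00642 to 0.103.

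Tead1 and Tead2, which lie far apart on chromosome 7 (112679318 to 112906807 and 45215753 to 45233644, both plus strand), moved less and in different ways. Tead1 libraries were at 133, 116 and 132 CPM in EpiSC and rose to 235, 206 and 187 CPM at D3. They were then low at 97.9, 95.0 and 94.4 CPM at D5 and 75.4, 98.2 and 120 CPM at D8, and high at 239, 247 and 261 CPM in rES and 200, 200 and 212 CPM in ESC. The fall from D3 to D5 was 2.19-fold (log2 difference -1.13 ± 0.12, adjusted p = 2.89e-07) and the rise from D8 to rES 2.54-fold (1.35 ± 0.12, adjusted p = 1.43e-08). At D8 the 3 libraries were spread and overlapped those of EpiSC. The call there (-0.37 ± 0.12, adjusted p = 0.00901) was lost without D8 replicate 1, where the difference was -0.19 (adjusted p = 0.0897), and with only those 2 groups in the fit (0.0542). Over the 12 alternatives that adjusted p ranged from 0.000164 to 0.0897. In rES and ESC Tead1 did not overlap, but the difference missed the threshold (0.29 ± 0.12, adjusted p = 0.0733), which it passed in 3 of 12 alternatives (0.000184 to 0.188).

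Tead2 was the TEAD gene that fell in every comparison with EpiSC. Its libraries were at 345, 354 and 361 CPM in EpiSC, 217, 246 and 273 CPM at D3, 286, 256 and 249 CPM at D5 and 226, 209 and 220 CPM at D8. They were at 172, 168 and 164 CPM in rES and 162, 170 and 141 CPM in ESC, which overlapped. No library of another group reached the lowest of EpiSC. The fall against EpiSC ranged from 1.34-fold at D5 (log2 difference -0.42 ± 0.08, adjusted p = 0.000176) to 2.24-fold in ESC (-1.16 ± 0.08, adjusted p = 8.13e-10). Tead2 shares 13 exon bases with Cd37 on the opposite strand, and the strand setting of the counts is not given.

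To compare the 4 factors with each other, CPM was divided by the length of annotated exons. On this scale the sum of the 4 was similar in EpiSC and on the days between and lower in rES and ESC. It was 84.6 ± 1.91 CPM per kb in EpiSC, 84.4 ± 5.21 at D3, 86.2 ± 7.47 at D5 and 80.1 ± 4.90 at D8, and 60.7 ± 0.187 in rES and 62.7 ± 3.27 in ESC. Tead2 held 87.2% ± 1.02 of that sum in EpiSC and between 52.5% ± 2.25 in ESC and 64.0% ± 1.64 at D5 elsewhere, the highest share of the 4 in every group. The share of Tead4 was 1.14% ± 0.148 in EpiSC, 15.6% ± 1.31 at D3, 12.9% ± 0.240 at D5, 16.4% ± 1.23 at D8, 11.4% ± 0.368 in rES and 23.1% ± 0.775 in ESC. For Tead3 it was 0.579% ± 0.120 in EpiSC, 5.39% ± 0.209 at D3, 14.9% ± 2.18 at D5 and 17.6% ± 1.01 at D8, then 0.500% ± 0.119 in rES and 0.393% ± 0.138 in ESC. Tead1 held 30.2% ± 1.30 in rES, 24.1% ± 2.10 in ESC and 8.22% ± 0.538 at D5. These shares were not tested. They depend on the length used: with the longest transcript instead, the share of Tead4 was 0.949% in EpiSC and 20.1% in ESC.

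**Figure D2:**
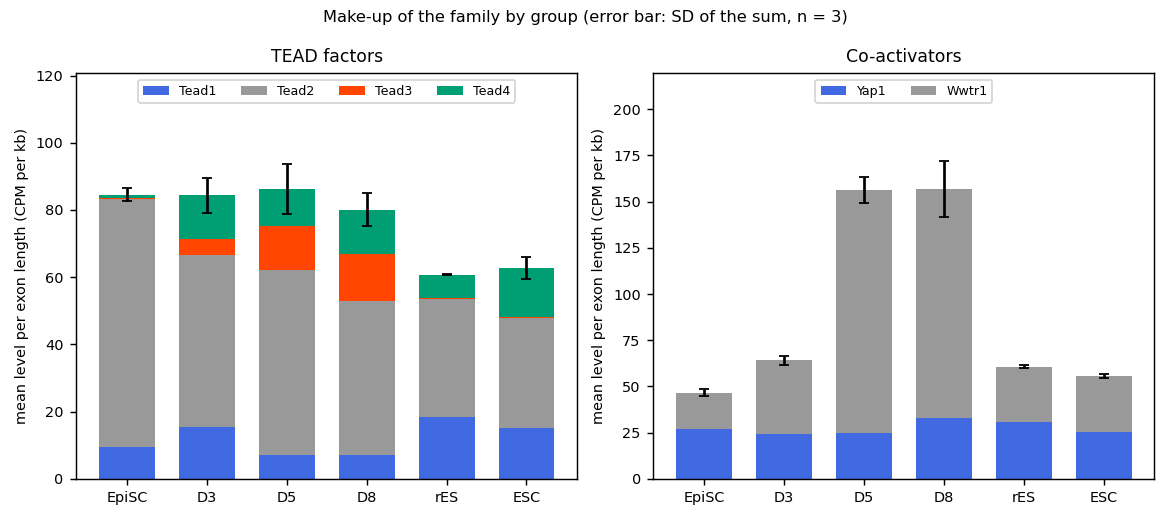
Mean level per kb of annotated exon (CPM per kb, vertical axes from 0) by group, stacked by gene, for the TEAD factors (left) and for Yap1 with Wwtr1 (right); error bars are the SD of the sum over 3 libraries. The Tead3 band is visible at D3, D5 and D8, the Tead4 band in all groups but hardly in EpiSC, and the Wwtr1 band is tallest at D5 and D8.

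The co-activators differed in how far they moved. Yap1 (chromosome 9, 7931999 to 8004596, minus strand) had the narrowest range of the 10 members, with its highest group mean 1.36-fold above its lowest. Its libraries were at 258, 237 and 256 CPM in EpiSC, 215, 230 and 223 CPM at D3, 237, 226 and 225 CPM at D5 and 312, 296 and 298 CPM at D8. They were at 287, 282 and 284 CPM in rES and 232, 231 and 238 CPM in ESC. D8 and rES were the high groups, above every library of the other 4. Small differences still passed the test: Yap1 rose from D5 to D8 (log2 difference 0.40 ± 0.05, adjusted p = 7.21e-06) and was higher in rES than in ESC (0.28 ± 0.05, adjusted p = 0.000473). The lower level at D5 than in EpiSC (-0.13 ± 0.05, adjusted p = 0.0400) lost its call in 8 of 12 alternatives, with adjusted p from 0.0171 to 0.137, one of which was the replicate block (0.0516). At D3 the difference (-0.17 ± 0.05, adjusted p = 0.00949) lost its call with only those 2 groups in the fit (0.0726), the highest of a range from 0.00481. ESC and EpiSC overlapped (-0.10 ± 0.05, adjusted p = 0.108). Yap1 shares 116 exon bases, 1.25% of its exon length, with the antisense gene Gm20416.

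Wwtr1 (chromosome 3, 57455649 to 57575910, minus strand) rose strongly on the way and came down again. Its libraries held 94.5, 89.5 and 95.6 CPM in EpiSC and 197, 197 and 179 CPM at D3. They reached 662, 618 and 604 CPM at D5 and 662, 595 and 524 CPM at D8, and held 139, 145 and 146 CPM in rES and 143, 144 and 150 CPM in ESC. D5 and D8 overlapped each other and lay above all other libraries, and rES and ESC overlapped too. The step from D3 to D5 was 3.29-fold (log2 difference 1.72 ± 0.08, adjusted p = 3.63e-12). Against EpiSC, D5 was 6.74-fold higher (2.75 ± 0.08, adjusted p = 2.07e-15). From D8 to rES Wwtr1 fell 4.14-fold (-2.05 ± 0.08, adjusted p = 6.96e-14), and rES and ESC differed by -0.03 ± 0.07 (adjusted p = 0.850). Per exon length, Yap1 made up 58.1% ± 0.374 of the pair in EpiSC, 37.6% ± 1.55 at D3, 15.9% ± 0.288 at D5, 20.9% ± 1.64 at D8, 50.6% ± 0.909 in rES and 45.3% ± 0.320 in ESC. With the longest transcript as length the shares were larger, 70.5% in EpiSC, 50.9% at D3, 24.5% at D5, 31.3% at D8, 63.8% in rES and 58.8% in ESC, so which of the pair was the more abundant at D3 and in ESC depends on the length. At D5 and D8 Wwtr1 was the more abundant with either length.

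The rise of Tead3 and Wwtr1 on the days between went with the summed trophoblast, fibroblast and primitive endoderm markers given above. Tead3 and Wwtr1 were higher at D5 than at D3, while the summed trophoblast markers were lower, at 765 to 828 CPM against 1197 to 1291 CPM, and the summed fibroblast markers higher, at 803 to 890 CPM against 502 to 658 CPM. The summed primitive endoderm markers overlapped, at 45.8 to 52.4 CPM at D5 against 42.0 to 46.5 CPM at D3. Single markers went both ways from D3 to D5: of the 8 trophoblast markers 3 were called higher and 4 lower, and of the 9 fibroblast markers 5 higher and 2 lower. Of the 5 primitive endoderm markers 1 was called higher and 2 lower. The part of such cells in these levels was not tested.

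**Figure D3:**
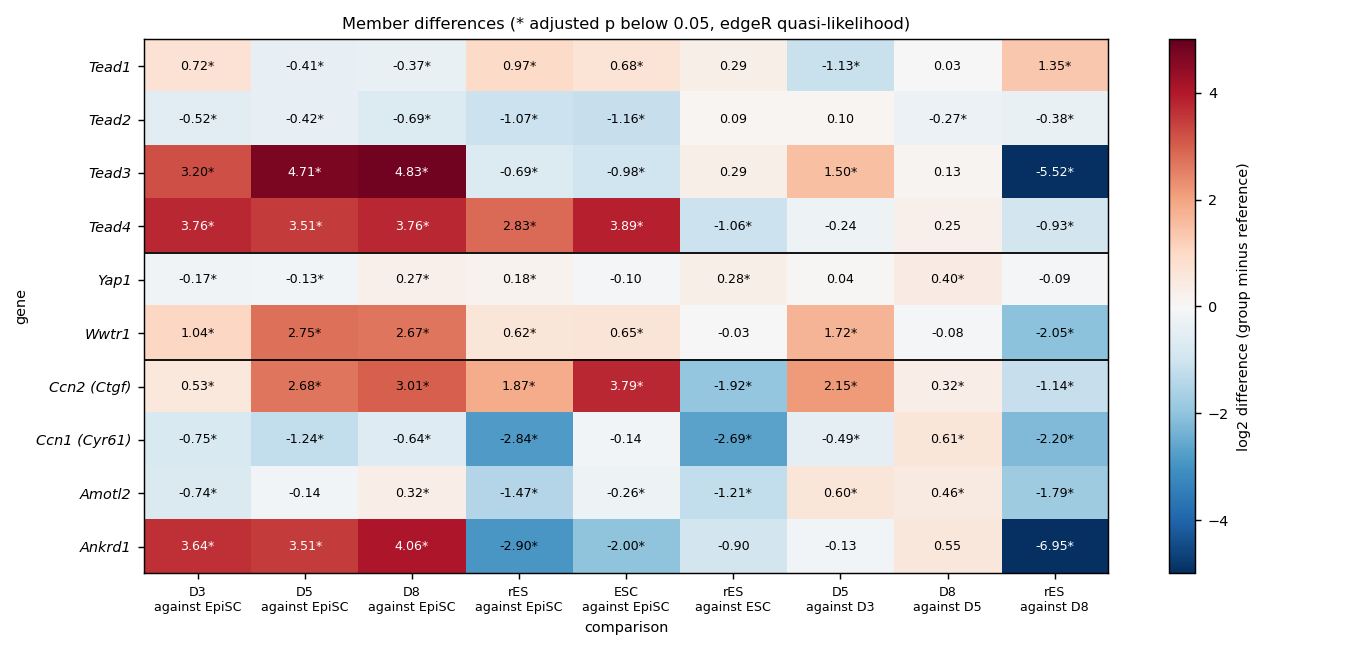
Log2 difference of each member (rows; lines divide TEAD factors, co-activators and targets) in the 9 comparisons (columns), first group minus second, with an asterisk where adjusted p was below 0.05. The colour scale ends at 5 either way. The column of rES against D8 holds 8 called falls, with the rise of Tead1 as the exception, and the D8 against D5 column holds no called difference of 2-fold.

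The 4 target genes did not move as 1 group. Ctgf (chromosome 10, 24595442 to 24598683, plus strand), a secreted matricellular protein, was called in all 9 comparisons and no pair of neighbouring groups in its order overlapped. Its libraries held 12.7, 10.4 and 13.6 CPM in EpiSC, 18.5, 18.8 and 15.8 CPM at D3, 75.7, 75.7 and 84.1 CPM at D5 and 102, 98.1 and 95.3 CPM at D8. They held 45.1, 45.4 and 43.7 CPM in rES and 176, 166 and 165 CPM in ESC. EpiSC were lowest and ESC highest, with a 13.8-fold difference (log2 difference 3.79 ± 0.10, adjusted p = 1.05e-15). Ctgf rose 4.44-fold from D3 to D5 (2.15 ± 0.09, adjusted p = 2.44e-12). Exons of the antisense gene Gm15270 cover 23.2% of Ctgf's exon length, but that gene's own row held 0 to 9 counts per library.

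Cyr61 (chromosome 3, 145646976 to 145649981, minus strand) encodes another protein of the same secreted family and had the opposite order at several points. EpiSC libraries stood at 158, 123 and 151 CPM and ESC libraries at 149, 133 and 110 CPM, which overlapped (log2 difference -0.14 ± 0.11, adjusted p = 0.278). Between them the level was 80.7, 98.1 and 79.0 CPM at D3, 63.5, 59.6 and 59.9 CPM at D5 and 99.2, 84.2 and 95.6 CPM at D8. In rES it was 21.9, 19.4 and 19.4 CPM, below every other library. Cyr61 fell 2.37-fold from EpiSC to D5 (-1.24 ± 0.12, adjusted p = 2.02e-08), where Ctgf rose 6.43-fold (2.68 ± 0.09, adjusted p = 2.73e-14). It then rose from D5 to D8 (0.61 ± 0.12, adjusted p = 0.000285) and fell 4.60-fold from D8 to rES (-2.20 ± 0.12, adjusted p = 1.44e-11).

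Amotl2 (chromosome 9, 102716672 to 102733418, plus strand) encodes an angiomotin-like protein that binds YAP and restrains it, so it is both a target and a feedback regulator. Its libraries were at 364, 324 and 359 CPM in EpiSC, 193, 223 and 211 CPM at D3, 307, 334 and 306 CPM at D5 and 454, 446 and 403 CPM at D8. They were at 121, 124 and 133 CPM in rES and 284, 303 and 290 CPM in ESC. D8 was the high group and rES the low one, and only EpiSC and D5 overlapped among neighbours in the order. After a fall at D3 (-0.74 ± 0.07, adjusted p = 4.90e-08) Amotl2 rose from D3 to D5 (0.60 ± 0.07, adjusted p = 1.05e-06) and from D5 to D8 (0.46 ± 0.07, adjusted p = 3.66e-05). It then fell 3.45-fold from D8 to rES (-1.79 ± 0.07, adjusted p = 2.41e-13). The small difference of ESC from EpiSC (-0.26 ± 0.07, adjusted p = 0.00401) lost its call with RLE scaling (0.0902), with DESeq2 (0.0678) and with only those 2 groups in the fit (0.0875). Over its 12 alternatives the adjusted p ranged from 0.00210 to 0.0902.

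Ankrd1 (chromosome 19, 36111961 to 36120099, minus strand), a nuclear ankyrin repeat protein known from stressed heart muscle, was the rarest member. It held 0.337, 0.396 and 0.576 CPM in EpiSC, from 21 to 37 counts. D3 libraries were at 6.44, 6.18 and 4.76 CPM, those of D5 at 5.94, 4.02 and 5.89 CPM and those of D8 at 6.85, 8.30 and 8.08 CPM. In rES 1 library held 6 counts and the others none, and in ESC the counts were 0, 2 and 15, against a floor of 12 counts. The days between were thus clearly above both ends. Ankrd1 rose at D3 (log2 difference 3.64 ± 0.52, adjusted p = 7.72e-06) and was 17.7-fold above EpiSC at D8 (4.06 ± 0.53, adjusted p = 1.59e-06). Both rES (adjusted p = 0.000588) and ESC (adjusted p = 0.00615) were called lower than EpiSC, and the call for ESC was lost with only those 2 groups in the fit (adjusted p = 0.0596, the highest of a range from 8.46e-05). Steps among the 3 days did not pass, with adjusted p of 0.838 from D3 to D5 and 0.349 from D5 to D8.

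The converted cells were then compared with embryonic stem cells. In rES against ESC 5 of 10 members were called, 1 higher and 4 lower, where 33.5% of all tested genes were called, 15.6% higher and 17.9% lower. The 4 that were lower were also those 2-fold different, against 8.42% of all genes at that size. Cyr61 was 6.47-fold lower in rES (log2 difference -2.69 ± 0.12, adjusted p = 9.16e-11) and Ctgf 3.78-fold lower (-1.92 ± 0.09, adjusted p = 1.12e-10). Amotl2 was 2.32-fold lower (-1.21 ± 0.07, adjusted p = 1.82e-09) and Tead4 2.09-fold lower (-1.06 ± 0.11, adjusted p = 1.75e-06). In each of the 4 genes the 3 rES libraries lay below the 3 ESC libraries. Yap1 alone was higher, as given above, and Tead2 (0.09 ± 0.08, adjusted p = 0.428), Tead3 (0.29 ± 0.25, adjusted p = 0.409) and Ankrd1 (adjusted p = 0.319) did not pass. Cyr61 and Amotl2 were lower in rES than in EpiSC as well, 7.15-fold and 2.77-fold (-2.84 ± 0.12 and -1.47 ± 0.07; adjusted p = 6.75e-13 and 3.78e-12), whereas Ctgf and Tead4 in rES lay between EpiSC and ESC. The summed fibroblast markers were lower in rES than in ESC too, with 6 of the 9 called lower and none higher, Col1a1 at 2.92 against 79.2 CPM and Col3a1 at 0.116 against 19.7 CPM. Their part in the difference was not tested.

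From D8 to rES 9 members were called, 8 lower and 1 higher, where 71.1% of all genes were called, 38.4% lower and 32.7% higher. From D3 to D5 the count was 6, with 4 higher and 2 lower, against 59.5%, 29.9% higher and 29.6% lower. From D5 to D8 it was 5, with 4 higher and 1 lower, against 47.1%, 25.1% higher and 22.0% lower. The median member difference was -1.46, 0.07 and 0.29 in these 3 steps, beside -0.09, 0 and 0.05 for all genes. At least 2-fold differences numbered 7 from D8 to rES (44.9% of all genes), 4 from D3 to D5 (28.7%) and 0 from D5 to D8 (18%), where 5 passed at any size.

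VGLL proteins are cofactors that bind TEAD factors at the surface YAP and TAZ use. Vgll1 had no count in EpiSC and stood at 26.9, 23.4 and 21.3 CPM at D3, 63.2, 65.8 and 61.6 CPM at D5 and 22.4, 18.8 and 12.7 CPM at D8, with at most 0.410 CPM in any rES or ESC library. It was at least 335-fold higher at D5 than in EpiSC, taking 12 counts per library as the floor (adjusted p = 5.37e-11), and was lower at D8 than at D5 (log2 difference -1.82 ± 0.32, adjusted p = 0.000203), a call lost with DESeq2 (0.0824), the highest p of its alternatives. Vgll3 rose from 2.85 ± 0.439 CPM in EpiSC to 61.8 ± 6.86 at D3, 149 ± 7.62 at D5 and 129 ± 22.0 at D8 (log2 differences 4.43 ± 0.17, 5.69 ± 0.18 and 5.48 ± 0.18), and was 79.6-fold lower in rES than at D8 (adjusted p = 4.91e-15). Vgll4, which competes with YAP for TEAD factors, rose from 13.7 ± 0.604 to 86.9 ± 2.04 CPM at D8 (2.66 ± 0.11, adjusted p = 1.16e-13) and was at 14.3 ± 1.66 CPM in rES. All 3 tested VGLL genes were called higher at D3, D5 and D8, where 34.1%, 37.7% and 42.4% of all genes were. With no count in EpiSC, Vgll1 could pass the filter only through other groups and could not be called lower, so its direction was set beforehand. On the same days the trophoblast markers summed to 530 to 1291 CPM, against 2.79 to 11.1 CPM in EpiSC, rES and ESC, and the summed fibroblast markers were higher as well. Of the 9 fibroblast markers 8 were called higher than in EpiSC at D3 and 0 lower. The split was 7 higher and 1 lower at D5 and again at D8. The part of such cells in the VGLL levels was not tested. Vgll2 reached at most 8 counts in a library and was not tested.

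Upstream of YAP and TAZ, a list of 23 genes of the kinase cascade and its regulators was followed. At D3 12 were higher and 3 lower, where 34.1% of all tested genes were higher and 30.2% lower. D5 gave 16 and 6 (all genes 37.7% and 34.3%) and D8 14 and 7 (42.4% and 34.5%). In rES 4 were higher and 12 lower than in EpiSC (31.9% and 37.5%), and in ESC 5 and 13 (31.2% and 36.1%). Among the lower calls in ESC, that of Lats1 (adjusted p = 0.0469) was lost in 9 of 12 alternatives and that of Nf2 (0.0404) in 8 of 12. In total 15 of 23 were called at D3 and 16 of 23 in rES, near the shares of all genes, 64.2% and 69.4%. The totals were 22 at D5, 21 at D8 and 18 in ESC, where 72.0%, 76.8% and 67.3% of all genes were called. The summed trophoblast and fibroblast markers were higher on D3, D5 and D8 too, and their part in these counts was not tested. Median log2 differences were 0.31, 0.60, 0.60, -0.52 and -0.43, beside 0.00, 0.02, 0.18, -0.09 and -0.07 for all genes. Amot, the founding angiomotin and a YAP-binding junction protein, had the widest log2 difference of the list. It stood at 42.8 ± 2.81 CPM in EpiSC, 183 ± 10.2 at D3, 326 ± 10.9 at D5 and 546 ± 77.2 at D8, and at 2.28 ± 0.249 CPM in rES and 2.16 ± 0.250 in ESC. That was a 239-fold fall from D8 to rES (log2 difference -7.88 ± 0.13, adjusted p = 5.72e-18). Lats2, one of the kinases that phosphorylate YAP, rose from 15.9 ± 1.90 to 58.4 ± 7.65 CPM at D8 (1.87 ± 0.13, adjusted p = 2.83e-10). Limd1, a LIM protein that inhibits LATS, rose from 52.5 ± 4.26 to 245 ± 29.2 CPM (2.22 ± 0.10, adjusted p = 4.38e-13). Its relative Ajuba went the other way, from 497 ± 30.7 to 113 ± 26.0 CPM (-2.13 ± 0.13, adjusted p = 3.11e-11). The protocadherin Dchs1 rose at D3 (1.50 ± 0.24, adjusted p = 2.50e-05) and was 60.4-fold lower in ESC than in EpiSC, at 0.310 ± 0.149 against 18.8 ± 3.83 CPM (adjusted p = 2.23e-11).

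Between rES and ESC, 4 upstream genes were higher in rES and 7 lower, where 15.6% of all genes were higher and 17.9% lower. The median log2 difference was -0.19, beside 0 for all genes. Rassf1, a scaffold of MST kinases, was 5.51-fold lower in rES (log2 difference -2.44 ± 0.14, adjusted p = 9.61e-10), and Ptpn14, a phosphatase that holds YAP in the cytoplasm, 2.44-fold higher (1.29 ± 0.10, adjusted p = 5.98e-08). Lats2 (-0.53 ± 0.13, adjusted p = 0.00497) and Amotl1 (0.49 ± 0.10, adjusted p = 0.00127) differed less.

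A list of 16 other genes known as YAP-TEAD targets in mammalian cells moved in both directions. At D3 10 were higher and 4 lower than in EpiSC, where 34.1% of all genes were higher and 30.2% lower. D5 gave 9 and 6 (all genes 37.7% and 34.3%) and D8 9 and 5 (42.4% and 34.5%). In rES 5 were higher and 11 lower (31.9% and 37.5%), and in ESC 4 and 10 (31.2% and 36.1%). The medians were 1.22, 1.87, 2.05, -2.05 and -1.58 on the log2 scale, beside 0.00, 0.02, 0.18, -0.09 and -0.07 for all genes. Myof, a membrane repair protein, was higher in all 5 comparisons, at 14.5 ± 1.49 CPM in EpiSC, 311 ± 9.11 at D8, 107 ± 0.435 in rES and 218 ± 3.37 in ESC. Tgfb2, a growth factor, rose 14.0-fold by D8 to 105 ± 17.9 CPM (log2 difference 3.80 ± 0.25, adjusted p = 1.46e-10) and stood at 1.55 ± 0.728 CPM in rES. Ccdc80, a matrix protein, was at 0.169 ± 0.146 CPM in EpiSC, below the floor, and at 39.9 ± 9.86 at D8 (adjusted p = 7.35e-12). With so few counts in EpiSC, Ccdc80 passed the filter through other groups and could hardly be called lower. Its direction against EpiSC was thus largely set beforehand. The higher call of Ccdc80 in rES was lost in some alternatives, such as without rES replicate 2 (adjusted p = 0.248). Fjx1 went down, from 42.8 ± 7.31 CPM to 2.27 ± 0.263 at D5 (-4.22 ± 0.23, adjusted p = 8.30e-12). Between rES and ESC, 3 of the 16 were higher in rES and 5 lower, where 15.6% of all genes were higher and 17.9% lower. Nt5e was 4.04-fold lower (-2.00 ± 0.18, adjusted p = 3.03e-07) and Myof 2.05-fold lower (-1.04 ± 0.07, adjusted p = 5.67e-09), while Crim1 (0.68 ± 0.09, adjusted p = 2.64e-05) and Arhgef17 (0.69 ± 0.14, adjusted p = 0.00114) were higher. Several of these genes, such as Axl, Ccdc80 and Tgfb2, are also expressed in fibroblasts, whose summed markers were higher on the same days. That part was not tested.

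**Figure D4:**
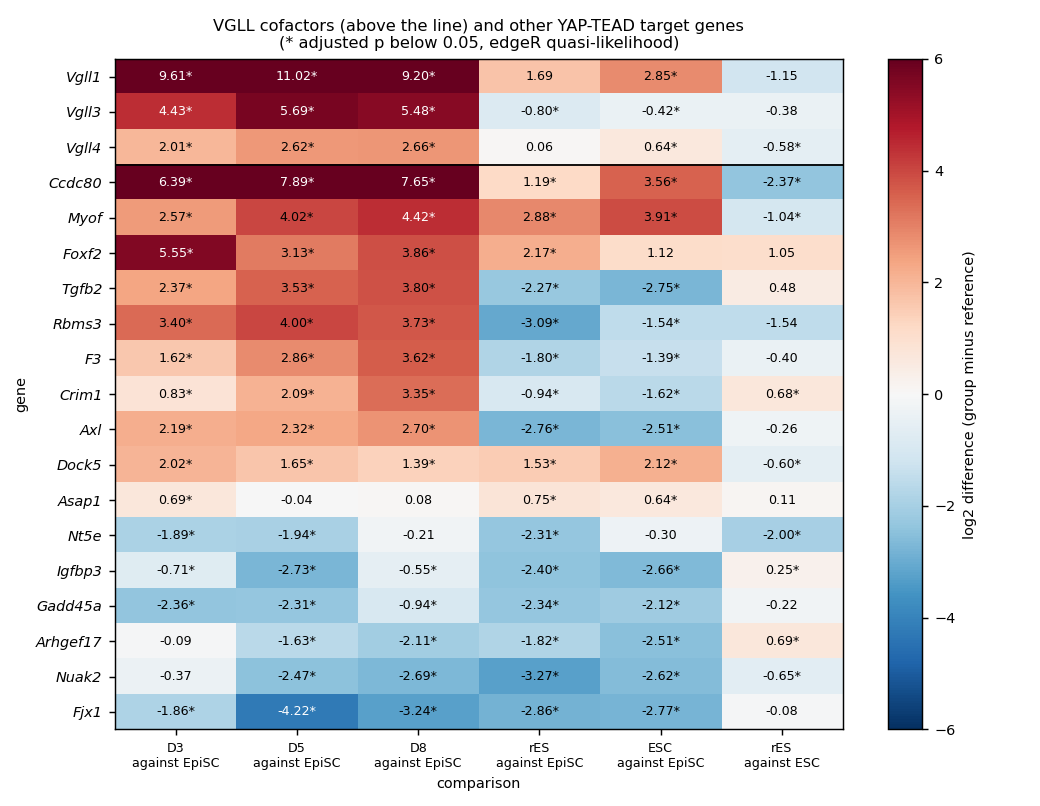
Log2 differences (first group minus second) of 3 VGLL cofactors, above the line, and 16 other YAP-TEAD target genes in 6 comparisons, with an asterisk where adjusted p was below 0.05. The colour scale ends at 6 either way, so Vgll1 and Ccdc80, whose values against EpiSC rest on the prior count and are no measured fold, run past it, while target genes such as Tgfb2 and Axl are higher at D3, D5 and D8 but lower in rES and ESC.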

How the data were processed

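Per the labels' protocols, ribosomal RNA was removed by RNase H digestion and libraries were sequenced as paired 150-base reads. Per the submitters' processing notes, bcl2fastq, Trim Galore and HISAT2 with mm10 were used, versions not given. The values the authors deposited are whole numbers for every symbol and library and were taken as unscaled expected counts, a unit inferred from the values. How reads were assigned to genes (program, gene models, strandedness) is not given in the sources used here. Low counts bunch at 4 and, less, at 8, so the floor was set at 12 counts per library (0.169 to 0.197 CPM).

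All 18 libraries were fitted together with edgeR 4.0.16 (limma 3.58.1, R 4.3.3): filterByExpr kept 17545 of 25239 symbols, with TMM scaling (factors 0.945 to 1.05), a quasi-likelihood test and Benjamini-Hochberg adjustment over all tested genes, threshold 0.05. Log2 values used a prior count of 2, and standard errors are the log2 difference over the square root of F. Genes named outside the 10 are, per comparison, up to 4 called members of each list with 5 CPM or more in a group, and the 3 genes most like Tead4 and Cyr61, of which 1 is not reported here. Positions and exon lengths came from GENCODE vM21 on GRCm38, which is mm10. The steps were tested on simulated data in which a small part of the genes was changed, in ESC only. Most genes were called in the comparisons with EpiSC, a setting that the simulation did not cover. Alternatives were RLE scaling, DESeq2 1.42.0, no filter, counts divided by 4, only 2 groups in the fit, a replicate block and each replicate left out. The members and lists were chosen with earlier results of these data known.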

Additional observations from a re-analysis of the deposited data

How the results depend on the processing

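Of 72 member differences called, tried 864 times under the alternatives, 843 kept direction and call and 21 lost the call, with no reversal. Among 18 not called, 15 of 215 trials passed the threshold and 10 changed sign. Leaving out a replicate, these ran from -0.14 (without D8 replicate 3) to 0.19 for Tead1, D8 against D5, from -0.025 (without D5 replicate 2) to 0.27 for Tead3, D8 against D5, from -0.17 to 0.00030 (without D8 replicate 3) for Wwtr1, D8 against D5, from -0.26 to 0.028 (without D5 replicate 2) for Ankrd1, D5 against D3, and from -1.94 to 0.41 (without ESC replicate 3) for Ankrd1, rES against ESC. Yap1 for ESC against EpiSC became 0.013 with RLE scaling, 0.0081 with DESeq2 and 0.032 with only the 2 groups, and Wwtr1 for rES against ESC 0.0093 with RLE scaling and 0.0081 with DESeq2. For the upstream, VGLL and other target lists, 288 called differences were tried 3454 times, of which 84 lost the call and 0 reversed. Of 540 counts of calls 534 stayed within 1.5 times. The others were all of the 3 VGLL genes: for rES against EpiSC 1 became 2 with DESeq2 and 0 with only the 2 groups, and 1 to 2 leaving out a replicate (2 without rES replicate 2); for rES against ESC 1 to 2 leaving out a replicate (2 without ESC replicate 2); for ESC against EpiSC 3 became 1 with only the 2 groups; for D8 against D5 1 became 0 with DESeq2. The cause was not tested. Fitted alone, rES against EpiSC had its median over all genes 0.12 higher on the log2 scale. The balance of directions over all genes turned with RLE scaling in the comparisons among EpiSC, rES and ESC and in D5 against D3. It turned in the same comparisons with DESeq2 and with only the 2 groups in the fit. For rES against EpiSC 5590 genes higher and 6585 lower became 6327 and 5762 with RLE scaling. For ESC against EpiSC 5472 and 6330 became 6058 and 5678, and for rES against ESC 2736 and 3141 became 3103 and 2835. For D5 against D3, where the balance was nearly even, 5251 and 5186 became 5217 and 5222.

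Same-numbered replicates did not pair: residuals correlated at a median of 0 (range -0.28 to 0.25, 45 pairs), and their own number was the best match for 5 of 18 libraries. With the replicate block Yap1 at D5 lost its call (adjusted p = 0.0516), and no other member call changed. Ankrd1 counts in rES and ESC lay near or below the floor, which limits how well the size of its differences there is known.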

Other observations

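Among 11315 other genes with at least 10 CPM in a group, those whose log2 level over the 18 libraries was most like that of Tead4 were Calr, a chaperone of the endoplasmic reticulum (Pearson r 0.982), Trim16 (0.968) and Cdkn2a, a cell cycle inhibitor locus (0.960). Calr moved over a far narrower range than Tead4, from 511 ± 12.5 CPM in EpiSC to 990 ± 70.0 CPM at D3, with 799 ± 16.8 CPM in rES and 975 ± 39.8 CPM in ESC. Trim16 was at 0.639 ± 0.188 CPM in EpiSC, 18.6 ± 0.407 CPM at D3, 5.11 ± 0.222 CPM in rES and 13.1 ± 0.556 CPM in ESC.

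Among the genes most like Cyr61 were Mcu, the channel for calcium entry into mitochondria (0.936), and Mb21d2 (0.862). Mcu stood at 25.0 ± 1.55 CPM in EpiSC, 13.1 ± 0.844 CPM in rES and 25.3 ± 0.601 CPM in ESC. Mcu and Mb21d2 were lowest in rES, as Cyr61 was. The libraries of a group share their state, so these values describe the 6 groups more than 18 separate points.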
